A study of Homo sapiens with 18 samples.

Results

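ZC3H4, WDR82, PPP1R10, TOX4, PPP1CA, PPP1CB, PPP1CC, PCF11 and XRN2 encode the restrictor complex, the PNUTS phosphatase and factors that end transcription, and they were read from the count files by symbol. They are 9 of the 26485 genes in the files, and all 9 had enough counts to be tested, as did 14011 genes in all. ZC3H4 and PPP1R10 were chosen by their measured falls with THZ1, so their THZ1 values are a description and carry no test. The other 7 were chosen by the complex they belong to.

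The samples were BxPC3, Panc327 and SUIT2, established human pancreatic ductal adenocarcinoma lines, each kept for 6 h with DMSO, the vehicle, or with 100 nM THZ1. THZ1 binds CDK7 covalently, the kinase of the transcription factor TFIIH, and also binds CDK12 and CDK13. The 6 groups were BxPC3 with DMSO, BxPC3 with THZ1, Panc327 with DMSO, Panc327 with THZ1, SUIT2 with DMSO and SUIT2 with THZ1, with 3 poly(A) libraries in each. Whether libraries of a group came from separate cultures is not in the labels. All p-values therefore rest on the spread among these libraries, which may be technical.

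Most transcripts that start in the wrong place or direction are stopped early and destroyed. ZC3H4, a CCCH zinc finger protein, and WDR82, a WD40 repeat protein that binds the phosphorylated tail of RNA polymerase II, form the restrictor, which ends such non-productive transcription near promoters and enhancers. WDR82 also sits in the PNUTS complex, in which the scaffold PNUTS (gene PPP1R10) holds the DNA-binding protein TOX4 and a catalytic subunit of protein phosphatase 1 (PP1), encoded by PPP1CA, PPP1CB or PPP1CC. That phosphatase removes phosphate from the elongation factor SPT5 and from RNA polymerase II, which slows the polymerase where genes end. PCF11, a cleavage factor that contacts the polymerase tail, and XRN2, the 5′ to 3′ exonuclease that degrades the RNA still attached to the polymerase, complete termination.

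Gene counts per library ranged from 5626146 to 8631273. Levels are counts scaled to library size (CPM) after TMM scaling, which sets libraries against each other by their typical gene, so a change is relative to the typical gene and not per cell. In bulk RNA, fewer cells of a type and less RNA per cell cannot be told apart. Marker levels are CPM by library size only, without TMM scaling. All 6 epithelial markers (KRT8, KRT18, KRT19, EPCAM, CDH1 and KRT7) were above 1 CPM in every line and summed to 5060.9 to 8912.71 CPM. Leukocyte markers summed to at most 5.36 CPM, endothelial markers to at most 15.9 CPM and fibroblast markers to at most 73.1 CPM, the last 2 highest in Panc327. Records aligned to several places, which the gene counts leave out, went with treatment in BxPC3 and Panc327. In BxPC3 they were 12.8% ± 0.609 of records with DMSO and 22.8% ± 0.805 with THZ1 (SD, n = 3). For Panc327 these shares were 13.6% ± 0.149 and 52.8% ± 1.81, and for SUIT2, 13.2% ± 0.726 and 12.9% ± 0.902. Their part in the results on THZ1 was not tested.

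The promoters of ZC3H4, PPP1R10 and WDR82 are printed because these 3 genes had the lowest log2 fold changes with THZ1 among the 9 in BxPC3 and in Panc327. Each sequence is the 250 bases before the RefSeq start on GRCh38.p14, read 5′ to 3′ on the minus strand of the chromosome, on which all 3 genes lie. Capitals mark the 4 motifs searched on both strands: TATAAA, the CRE palindrome TGACGTCA, CCAAT and the GC box GGGCGG. The motifs were chosen with the sequences in view.
ZC3H4, chr19:47113777-47114026: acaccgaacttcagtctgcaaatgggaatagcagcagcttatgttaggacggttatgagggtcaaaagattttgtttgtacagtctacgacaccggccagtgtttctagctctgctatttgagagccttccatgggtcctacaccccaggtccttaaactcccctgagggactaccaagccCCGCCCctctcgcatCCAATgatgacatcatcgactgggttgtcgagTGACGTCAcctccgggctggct
WDR82, chr3:52278650-52278899: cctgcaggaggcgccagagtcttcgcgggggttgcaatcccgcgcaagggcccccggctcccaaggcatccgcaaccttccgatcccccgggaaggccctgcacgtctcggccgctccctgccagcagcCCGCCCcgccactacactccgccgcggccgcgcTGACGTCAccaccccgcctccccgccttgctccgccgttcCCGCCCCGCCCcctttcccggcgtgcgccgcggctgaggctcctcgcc
PPP1R10, chr6:30617244-30617493: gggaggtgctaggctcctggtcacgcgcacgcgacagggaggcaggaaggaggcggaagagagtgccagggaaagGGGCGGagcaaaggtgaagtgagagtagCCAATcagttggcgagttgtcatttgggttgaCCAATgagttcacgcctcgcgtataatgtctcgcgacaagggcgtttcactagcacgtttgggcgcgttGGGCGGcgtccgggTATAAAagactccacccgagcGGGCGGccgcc

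The ZC3H4 and WDR82 windows both hold a full TGACGTCA, which 1.65% of the 35116 RefSeq promoters of this length hold. Its first base is at position -22 in ZC3H4 and at position -88 in WDR82, counted from the start. XRN2 also holds it, at position -54. The PPP1R10 window holds TATAAA at position -32, a sequence found in 10.7% of all promoters, with 2 CCAAT boxes at positions -147 and -115. CCAAT was present in 32.0% and GGGCGG in 42.6% of all promoters. In WDR82, 2 of the 3 GC boxes overlap by 1 base. The share of G and C was 52.4% in ZC3H4, 76.0% in WDR82 and 61.2% in PPP1R10, against a median of 58.0%. TOX4, PPP1CC and PCF11 hold CCAAT and GC boxes, and the PPP1CB window holds none of the 4 motifs. These matches describe letters and not bound sites. A RefSeq promoter was matched for 8 of the 9 genes.

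ZC3H4 lies on chromosome 19 from 47064187 to 47113752 on the minus strand (GRCh38, GENCODE 29), with 15 exons. Its normalised level with DMSO was 70.1, 80.8 and 73.8 CPM in the 3 BxPC3 libraries, from 576 to 714 counts. With THZ1 it was 8.18, 6.01 and 5.48 CPM, from only 33 to 46 counts. The BxPC3 groups were far apart, and the mean went from 74.9 ± 5.41 to 6.56 ± 1.43 CPM (SD, n = 3).
In Panc327 the ZC3H4 level with DMSO was 95.8, 94.9 and 96.7 CPM. With THZ1 it was 4.51, 3.52 and 3.35 CPM, from 17 to 26 counts, so the line with the most ZC3H4 before treatment had the least after it. In SUIT2 the level was 52.8, 51.4 and 48.2 CPM with DMSO and 36.7, 31.8 and 33.0 CPM with THZ1. The SUIT2 groups did not overlap either, but each treated SUIT2 library held over 30 CPM, a level above that of every treated library of the other lines.

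The fitted log2 fold change of ZC3H4 was -3.52 (SE 0.11) in BxPC3, -4.64 (SE 0.12) in Panc327 and -0.58 (SE 0.08) in SUIT2. These amount to levels 11.4-fold, 24.9-fold and 1.49-fold lower than with DMSO. Ranked from the lowest fold change of the 14011 genes, ZC3H4 stood at place 51 in BxPC3, 13 in Panc327 and 825 in SUIT2. The response of Panc327 lay 1.12 (SE 0.23) below that of BxPC3 and 4.06 below that of SUIT2 on the log2 scale. SEs here are derived from the test statistic. For the large falls to few counts in BxPC3 and Panc327 they are likely too small. The SE of 0.23 for the difference is more than SEs of 0.11 and 0.12 would give.

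WDR82, the partner of ZC3H4 in the restrictor and of PNUTS in the phosphatase, lies on chromosome 3 from 52254421 to 52288020 over all GENCODE transcripts. Its RefSeq transcript has 9 exons and spans 52254421 to 52278643, and the printed promoter belongs to that start. ZC3H4 was chosen by its fall, and WDR82 was lower with THZ1 in the same lines by less. Its level with DMSO was 168, 172 and 177 CPM in BxPC3 and it was 82.0, 83.6 and 76.9 CPM with THZ1. In Panc327 it was 128, 135 and 130 CPM and then 37.1, 39.9 and 36.7 CPM. SUIT2 libraries held 214, 205 and 210 CPM with DMSO and 196, 185 and 196 CPM with THZ1. No treated library reached the lowest DMSO library of its line, but the SUIT2 groups lay close. WDR82 fell by 1.09 (SE 0.05) on the log2 scale in BxPC3 (edgeR quasi-likelihood test with Benjamini-Hochberg adjustment, adjusted p = 4.57e-33). It fell by 1.79 (SE 0.07) in Panc327 (edgeR adjusted p = 1.28e-42). The SUIT2 difference of -0.12 (SE 0.05) missed the threshold of 0.05 (edgeR adjusted p = 0.0536), which it passed with RLE size factors at an adjusted p of 0.0409 and with DESeq2 at 0.0497.

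The balance of the restrictor pair within a library does not depend on scaling between libraries. ZC3H4 was chosen by its fall with THZ1, so a lower ratio with THZ1 follows from that choice and is a description. Per kilobase of exon, ZC3H4 amounted to 0.305 ± 0.0205 of WDR82 in BxPC3 with DMSO and 0.0568 ± 0.0114 with THZ1 (SD, n = 3). In Panc327 the ratio was 0.514 ± 0.0170 and then 0.0704 ± 0.0129. In SUIT2 it was 0.170 ± 0.00775 and then 0.124 ± 0.00699. The order of the lines thus changed: SUIT2 had the lowest ratio with DMSO and the highest with THZ1.

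**Figure D1:**
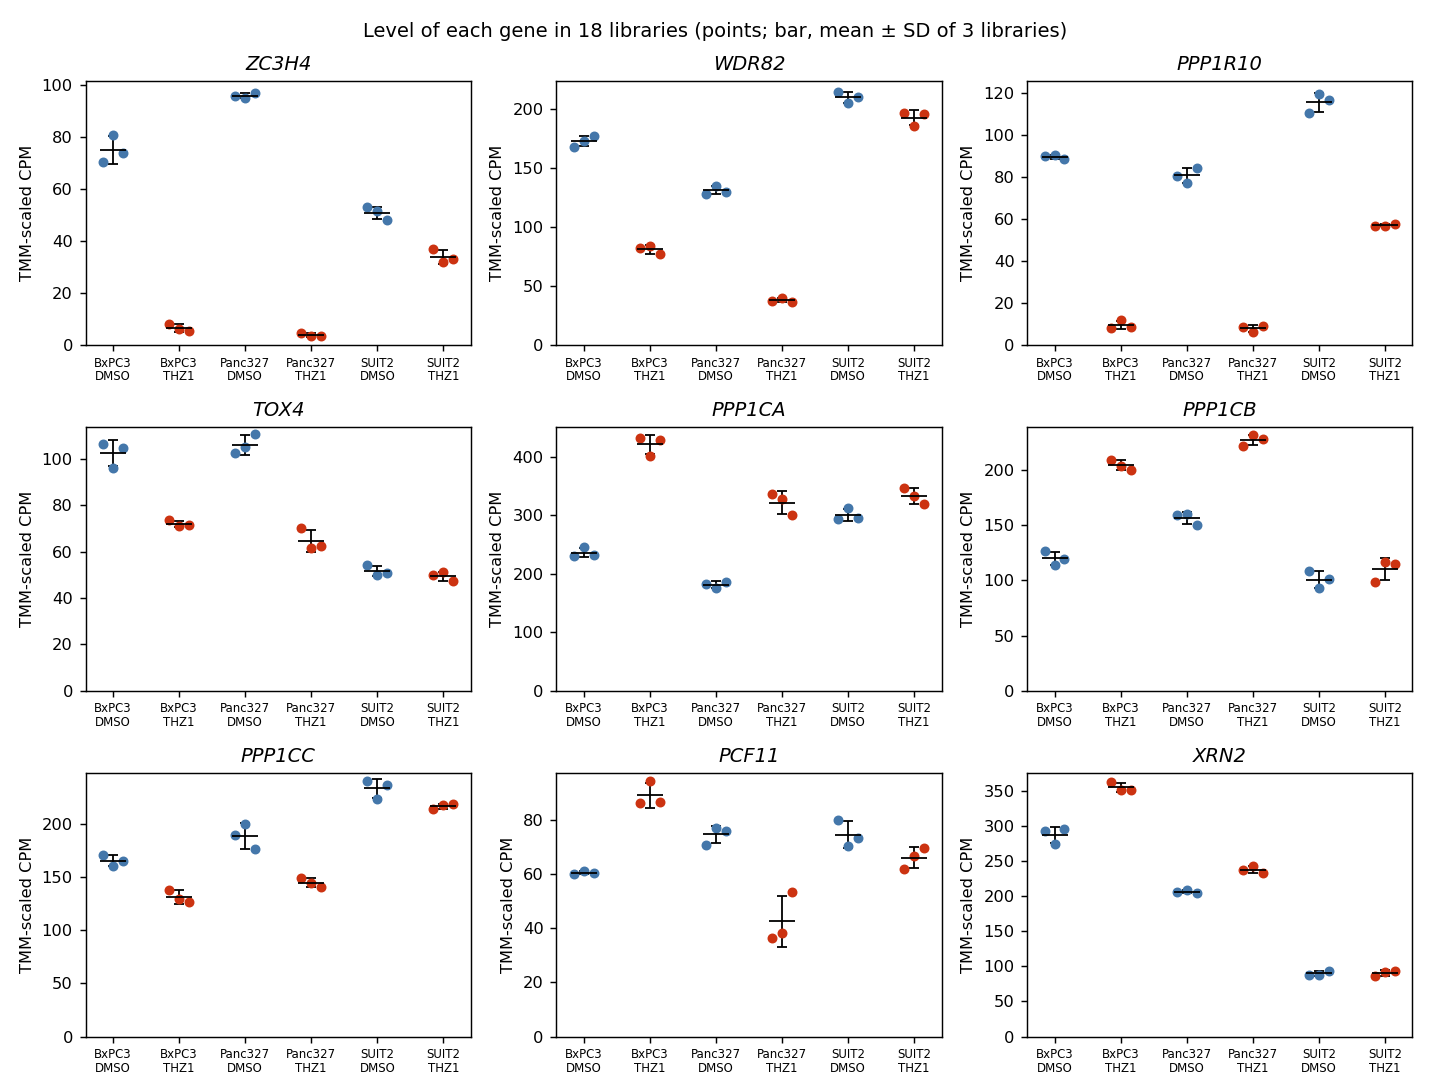
Level of each of the 9 genes in the 18 libraries, in TMM-scaled CPM on linear axes from 0, by line and treatment (DMSO blue, THZ1 red), with each point a library and bars at the group mean and SD. ZC3H4 and PPP1R10 are below 12 CPM with THZ1 in every BxPC3 and Panc327 library and above 30 CPM in every SUIT2 library.

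PPP1R10, the PNUTS scaffold that anchors WDR82, TOX4 and PP1, lies on chromosome 6 from 30600400 to 30618612 on the minus strand over all GENCODE transcripts. The gene has 20 exons in its RefSeq transcript, which spans 30600400 to 30617244. Its DMSO level was 89.8, 90.3 and 88.6 CPM in BxPC3, and with THZ1 it was 8.0, 11.8 and 8.80 CPM. In Panc327 the level was 80.7, 77.3 and 84.2 CPM with DMSO and 8.50, 6.21 and 9.08 CPM with THZ1, from 30 to 49 counts. With THZ1 the BxPC3 and Panc327 libraries overlapped, and with DMSO the BxPC3 libraries were the higher. SUIT2 libraries held 111, 119 and 117 CPM with DMSO and 56.9, 56.8 and 57.8 CPM with THZ1, groups that did not overlap.

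The log2 fold change of PPP1R10 was -3.23 (SE 0.10) in BxPC3, -3.34 (SE 0.10) in Panc327 and -1.02 (SE 0.06) in SUIT2. The level was thus 9.37-fold, 10.1-fold and 2.02-fold lower with THZ1, at places 76, 98 and 367 from the lowest of all tested genes. In SUIT2 PPP1R10 stood lower in the ranking than ZC3H4, the reverse of BxPC3 and Panc327. The SEs of PPP1R10 in BxPC3 and Panc327 are likely too small as well.

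TOX4, the HMG-box protein of the PNUTS complex, lies on chromosome 14 from 21476597 to 21499175 on the plus strand. In BxPC3 it measured 106, 96.4 and 105 CPM with DMSO and 73.6, 71.2 and 71.6 CPM with THZ1. In Panc327 it measured 103, 105 and 111 CPM and then 70.3, 61.4 and 62.5 CPM. In SUIT2 the level was 54.2, 49.8 and 50.9 CPM with DMSO and 49.8, 51.2 and 47.2 CPM with THZ1. The groups overlapped in SUIT2 and in no other line. TOX4 fell by 0.51 (SE 0.06) on the log2 scale in BxPC3 (edgeR adjusted p = 6.26e-12) and by 0.71 (SE 0.06) in Panc327 (edgeR adjusted p = 8.31e-18). The SUIT2 value was -0.06 (SE 0.07, edgeR adjusted p = 0.588). Exons of TOX4 and METTL3 share 345 bases on opposite strands, 7.61% of the TOX4 exons, and reads there cannot be assigned without strand. METTL3 itself fell by 0.41 in BxPC3 and was not called in Panc327 at -0.11 or in SUIT2 at -0.05.

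Within the phosphatase, the scaffold was set against its partners TOX4 and WDR82. PPP1R10 was chosen by its fall with THZ1, so its lower ratios with THZ1 follow from that choice and are a description. Per kilobase of exon, PPP1R10 amounted to 0.876 ± 0.0538 of TOX4 in BxPC3 with DMSO and 0.133 ± 0.0300 with THZ1 (SD, n = 3). The ratio was 0.762 ± 0.0253 and then 0.123 ± 0.0221 in Panc327, and 2.25 ± 0.182 and then 1.16 ± 0.0591 in SUIT2. Against WDR82, PPP1R10 went from 0.493 ± 0.0165 to 0.112 ± 0.0211 in BxPC3, from 0.586 ± 0.0370 to 0.200 ± 0.0461 in Panc327 and from 0.523 ± 0.0317 to 0.282 ± 0.00824 in SUIT2. With DMSO the PPP1R10 to WDR82 ratio was 0.475 to 0.508 in BxPC3 libraries and 0.545 to 0.616 in Panc327 libraries, without overlap. The SUIT2 range of 0.490 to 0.553 overlapped both. The ratio was lower with THZ1 in each line.

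The PP1 catalytic subunits did not all follow the scaffold: PPP1CA and PPP1CB rose in BxPC3 and Panc327, and PPP1CC fell, by less than PPP1R10. PPP1CA (chromosome 11, 67398183 to 67421183 over all transcripts and to 67401931 in RefSeq, minus strand) measured 230, 245 and 233 CPM with DMSO and 432, 402 and 429 CPM with THZ1 in BxPC3. In Panc327 it measured 183, 175 and 186 CPM and then 336, 328 and 299 CPM. In SUIT2 it was 294, 312 and 296 CPM and then 347, 334 and 319 CPM, so all treated libraries lay above all DMSO libraries in every line. PPP1CA rose by 0.84 (SE 0.04) on the log2 scale in BxPC3 (edgeR adjusted p = 1.29e-31), by 0.82 (SE 0.05) in Panc327 (edgeR adjusted p = 5.07e-30) and by 0.15 (SE 0.04) in SUIT2 (edgeR adjusted p = 0.00991). The SUIT2 call was lost without DMSO replicate 1 (0.13, edgeR adjusted p = 0.0553), DMSO replicate 3 (0.13, adjusted p = 0.0682) or THZ1 replicate 1 (0.12, adjusted p = 0.0832). PPP1CA exons share 227 bases, 14.9% of their length, with RAD9A on the other strand. RAD9A, a cell cycle checkpoint gene, fell by 0.81 in BxPC3 and by 1.26 in Panc327, opposite to PPP1CA.

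PPP1CB (chromosome 2, 28751640 to 28802940, plus strand), the beta catalytic subunit, was at 120 ± 6.18 CPM with DMSO and 204 ± 4.65 CPM with THZ1 in BxPC3 (SD, n = 3). In Panc327 the means were 156 ± 5.68 and 227 ± 4.88 CPM. It rose by 0.77 (SE 0.05, edgeR adjusted p = 1.44e-23) in BxPC3 and by 0.54 (SE 0.05, edgeR adjusted p = 3.32e-16) in Panc327. In SUIT2 the libraries overlapped, at 108, 93.0 and 101 CPM with DMSO and 98.4, 117 and 114 CPM with THZ1. The SUIT2 difference of 0.12 (SE 0.06) was not called (edgeR adjusted p = 0.142), and without THZ1 replicate 1, the lowest treated library, it was 0.20 and called (adjusted p = 0.0167).

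PPP1CC (chromosome 12, 110719680 to 110742939, minus strand), the gamma catalytic subunit, measured 171, 160 and 165 CPM with DMSO and 138, 129 and 126 CPM with THZ1 in BxPC3. In Panc327 it was 190, 199 and 176 CPM and then 149, 145 and 140 CPM. SUIT2 libraries held 240, 223 and 236 CPM and then 214, 217 and 218 CPM. Every treated library lay below every DMSO library of its line. PPP1CC fell by 0.33 (SE 0.05) on the log2 scale in BxPC3 (edgeR adjusted p = 1.45e-08) and by 0.38 (SE 0.05) in Panc327 (edgeR adjusted p = 1.71e-10). In SUIT2 the value was -0.11 (SE 0.05, edgeR adjusted p = 0.106).

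The share of PPP1CA among the PP1 catalytic transcripts was higher with THZ1 in BxPC3 and Panc327. In SUIT2 the PPP1CA shares overlapped between treatments. Shares were taken within a library from counts per kilobase of exon, which library scaling does not touch. PPP1CA made up 63.8% ± 1.61 of the 3 transcripts with DMSO and 75.1% ± 0.814 with THZ1 in BxPC3, and 53.4% ± 2.07 and 67.5% ± 1.07 in Panc327 (SD, n = 3). PPP1CC went from 26.3% ± 1.04 to 13.7% ± 0.519 in BxPC3 and from 32.5% ± 1.73 to 17.9% ± 0.330 in Panc327. Shares in those lines did not overlap between treatments, with an exact 2-sided permutation p of 0.1 for each, the smallest that 3 against 3 allows, and 0.15 after Benjamini-Hochberg adjustment over 9 shares. In SUIT2 PPP1CA had 64.2% ± 1.8 and then 67.4% ± 1.44 (exact permutation p = 0.2), and PPP1CC had 29.2% ± 1.29 and then 25.7% ± 0.777 (exact permutation p = 0.1). After length scaling PPP1CB was the smallest share in every line, with group means from 6.62% in SUIT2 with DMSO to 14.7% in Panc327 with THZ1. In raw counts with THZ1 it exceeded PPP1CC, at 26.5% to 27.7% against 16.7% to 17.7% in BxPC3 and 31.4% to 34.2% against 20.5% to 21.1% in Panc327.

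**Figure D2:**
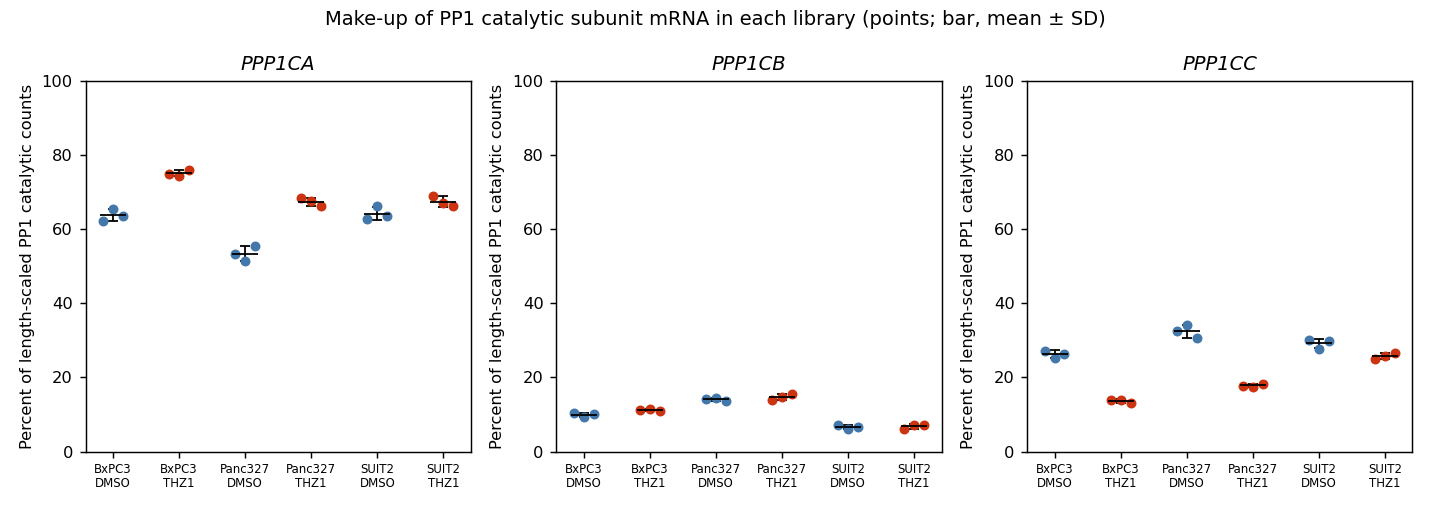
Share of PPP1CA, PPP1CB and PPP1CC among their summed length-scaled counts, in percent, for each library by line and treatment (DMSO blue, THZ1 red), with points for libraries and bars at the group mean and SD. The PPP1CA share is higher and the PPP1CC share lower with THZ1 in BxPC3 and Panc327, and both lie nearer to DMSO in SUIT2.

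PCF11, the cleavage factor that couples RNA cleavage to release of the polymerase, moved in opposite directions in BxPC3 and Panc327. It lies on chromosome 11 from 83156988 to 83187451 on the plus strand, with 16 exons. Its level in BxPC3 was 59.8, 61.0 and 60.4 CPM with DMSO and 86.3, 94.2 and 86.4 CPM with THZ1. In Panc327 it was 70.7, 77.0 and 75.7 CPM with DMSO and 36.3, 38.1 and 53.3 CPM with THZ1. In SUIT2 it was 79.8, 70.3 and 73.1 CPM and then 61.7, 66.7 and 69.5 CPM. No groups overlapped, but all treated libraries were higher in BxPC3 and lower in the other lines. PCF11 rose by 0.56 (SE 0.07) on the log2 scale in BxPC3 (edgeR adjusted p = 8.56e-11) and fell by 0.81 (SE 0.08) in Panc327 (edgeR adjusted p = 5.5e-15). Panc327 THZ1 replicate 3 stood above its group, and without it the fall was to -1.01. The SUIT2 value of -0.18 (SE 0.07) was not called (edgeR adjusted p = 0.0736), though it was called without DMSO replicate 2 (-0.21, adjusted p = 0.0462) and with no filter on low counts (adjusted p = 0.0498).

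XRN2, the exonuclease of the torpedo step, lies on chromosome 20 from 21303304 to 21389827 on the plus strand and has 30 exons. In BxPC3 its level was 293, 275 and 295 CPM with DMSO and 362, 352 and 352 CPM with THZ1. In Panc327 it was 206, 209 and 205 CPM and then 237, 243 and 233 CPM. SUIT2 libraries held 88.3, 88.0 and 94.0 CPM and then 86.3, 92.1 and 93.4 CPM, with overlapping groups. Relative to the typical gene XRN2 rose by 0.30 (SE 0.04) in BxPC3 (edgeR adjusted p = 7.59e-10) and by 0.20 (SE 0.05) in Panc327 (edgeR adjusted p = 4.82e-05). These directions turned with library size as the only scaling, to -0.09 (edgeR adjusted p = 0.0475) and -0.12 (edgeR adjusted p = 0.0111), both called in the opposite direction, a scaling under which the median of all genes went from 0.00 to -0.35 in BxPC3 and from -0.01 to -0.34 in Panc327. The SUIT2 value was 0.01 (SE 0.05, edgeR adjusted p = 0.987).

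Library size alone kept the sign of the 8 other genes in BxPC3 and Panc327. It put PPP1CA at 0.44 and 0.50, PPP1CB at 0.37 and 0.21, PPP1CC at -0.73 and -0.71, TOX4 at -0.90 and -1.03, and PCF11 at 0.16 and -1.14 in the 2 lines. The rises of PPP1CA, PPP1CB and PCF11 were thus smaller and the falls larger on that scale. In SUIT2 the median of all genes was 0.01 and then 0.00.

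**Figure D3:**
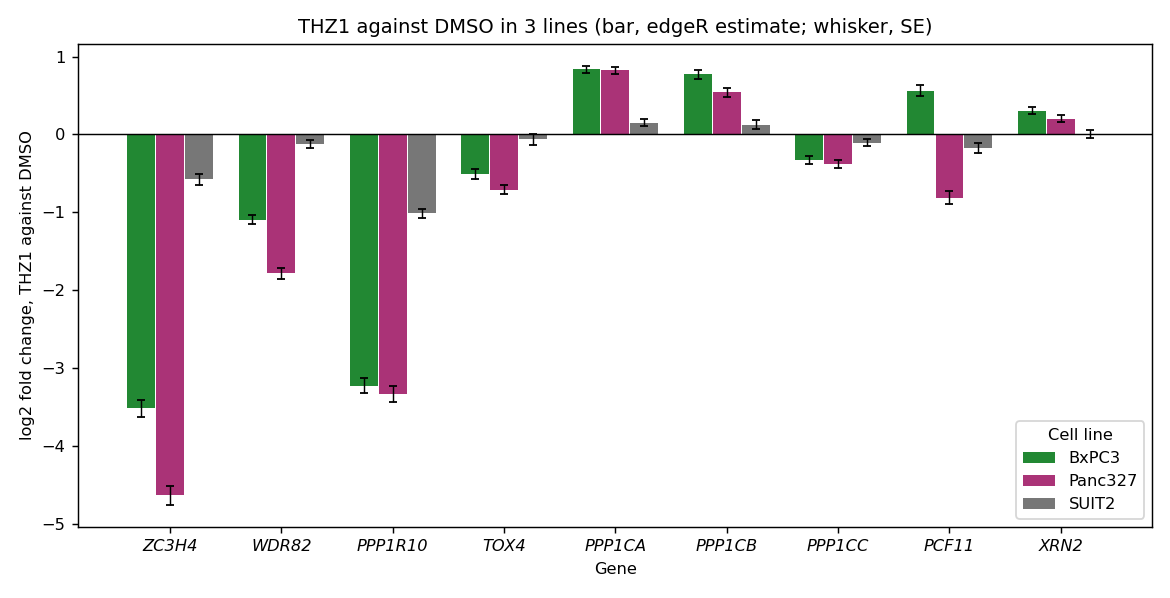
Bars give the log2 fold change of THZ1 against DMSO, with whiskers for its SE, for each of the 9 genes in BxPC3, Panc327 and SUIT2. Whiskers of ZC3H4 and PPP1R10 in BxPC3 and Panc327 are likely too short. Bars lie near 0 in SUIT2 except for ZC3H4 and PPP1R10, and PCF11 lies above 0 in BxPC3 and below 0 in Panc327.

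Of the 7 genes chosen by complex, 4 were called higher and 3 lower with THZ1 in BxPC3, where 35.2% of all tested genes were called higher and 34.1% lower. In Panc327 3 were called higher and 4 lower, against 35.6% and 37.8% of all genes. In SUIT2 1 was called higher and 0 lower, against 6.95% and 7.64%. At an unadjusted p under 0.05 edgeR put 3 of them lower in SUIT2, and DESeq2 called 1 lower after adjustment. With so many genes called in BxPC3 and Panc327, the counts say little about these genes, and the sizes and directions carry the description. The median log2 fold change of the 7 was 0.30 in BxPC3, -0.38 in Panc327 and -0.06 in SUIT2, beside 0.00, -0.01 and 0.01 over all genes.

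**Figure D4:**
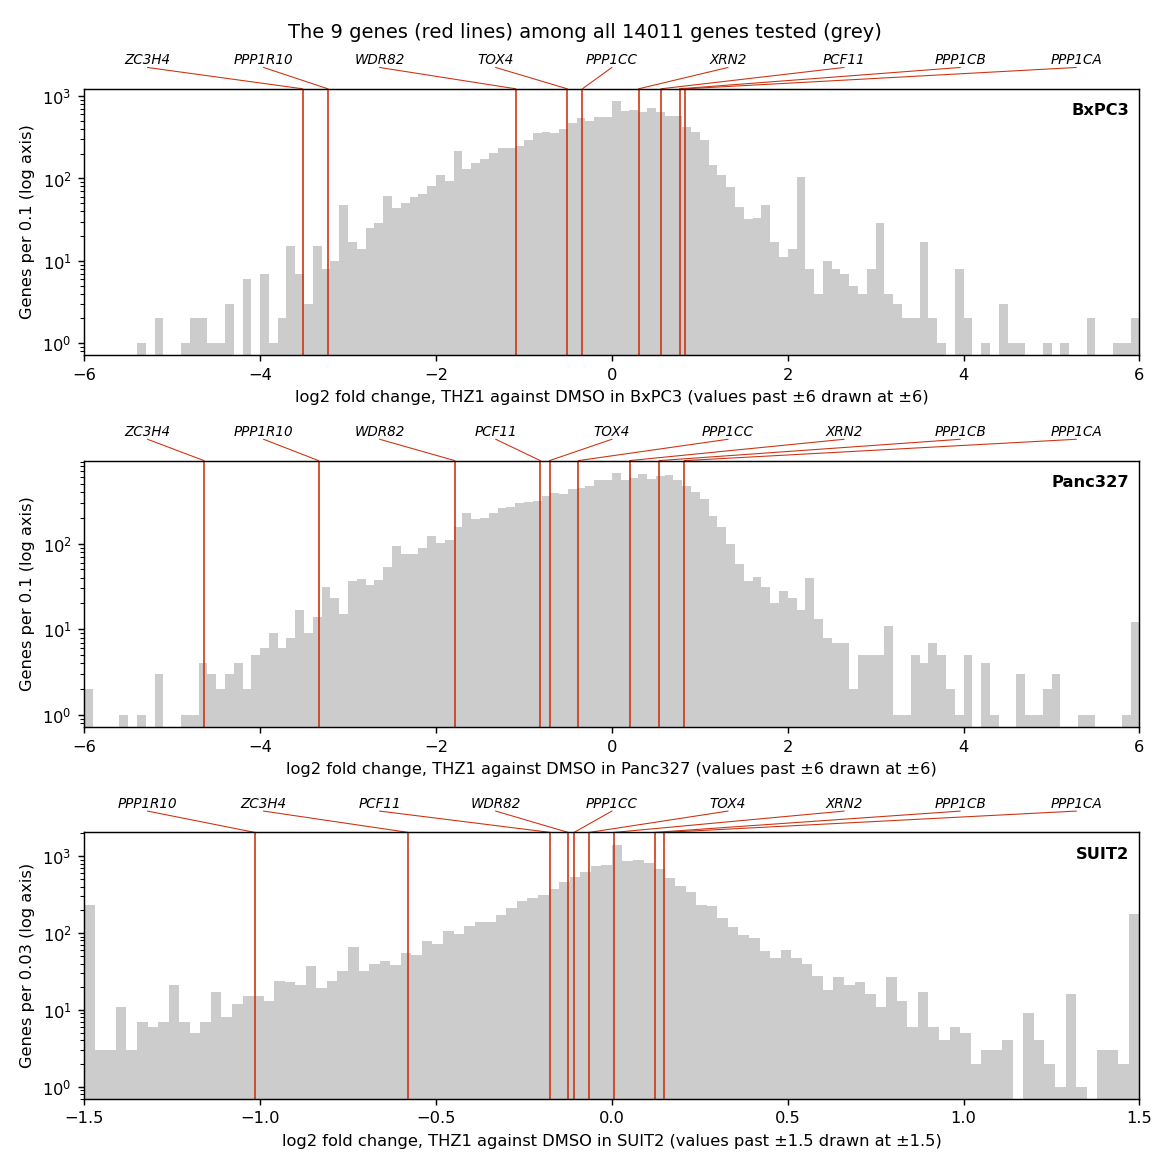
Histogram of the log2 fold change with THZ1 for the 14011 tested genes in each line (grey, number of genes on a log axis), with the 9 genes marked as red lines; the SUIT2 axis is narrower. ZC3H4 and PPP1R10, chosen by their falls, have the lowest values of the 9 in each line. In SUIT2 5.88% of all genes lie below ZC3H4, and in Panc327 7.59% lie below WDR82.

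The responses of the 3 lines were compared by the difference of their log2 fold changes in the same fit. BxPC3 against SUIT2, 4 of the 7 were called with a higher and 3 with a lower value, where 27.3% and 27.6% of all genes were called. Panc327 against SUIT2, 3 were called higher and 4 lower, against 28.3% and 32.4%. BxPC3 against Panc327, 3 were called higher and 0 lower by edgeR, against 22.2% and 14.1%, and 0 were lower at an unadjusted p under 0.05 or in DESeq2. These comparisons share libraries.

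WDR82 differed between every pair of lines. Its response in BxPC3 stood at -0.97 (SE 0.07) against SUIT2 (edgeR adjusted p = 1.24e-21), and the Panc327 response stood at -1.66 (SE 0.08) against SUIT2 (edgeR adjusted p = 7.45e-33). BxPC3 fell less than Panc327, by a difference of 0.69 (SE 0.09, edgeR adjusted p = 2.35e-10). PCF11 also differed between every pair, by 1.37 (SE 0.11) between BxPC3 and Panc327 (edgeR adjusted p = 2.05e-18), by 0.73 (SE 0.10) between BxPC3 and SUIT2 (edgeR adjusted p = 9.41e-10) and by -0.64 (SE 0.11) between Panc327 and SUIT2 (edgeR adjusted p = 2.28e-07). TOX4 differed from SUIT2 by -0.44 in BxPC3 (edgeR adjusted p = 2.06e-05) and by -0.64 in Panc327 (edgeR adjusted p = 3.51e-09).

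Among the PP1 subunits, the PPP1CA response in BxPC3 and Panc327 differed by 0.01, with an approximate 95% interval of -0.11 to 0.14 (edgeR adjusted p = 0.943). Against SUIT2 the PPP1CA response was 0.69 higher in BxPC3 (edgeR adjusted p = 2.06e-17) and 0.68 higher in Panc327 (edgeR adjusted p = 9.25e-17). PPP1CB was 0.65 higher in BxPC3 than in SUIT2 (edgeR adjusted p = 9.43e-12) and 0.42 higher in Panc327 (edgeR adjusted p = 1.59e-06), the latter 0.11 and not called with library size only (adjusted p = 0.242). The PPP1CB difference between BxPC3 and Panc327 of 0.23 (edgeR adjusted p = 0.00945) was lost with RLE size factors (0.15, adjusted p = 0.0964), with library size only (0.16, adjusted p = 0.0847), with DESeq2 (adjusted p = 0.159) and in a fit of only these lines (0.094, adjusted p = 0.276). PPP1CC fell further than in SUIT2 in BxPC3, at -0.23 (edgeR adjusted p = 0.00327), and in Panc327, at -0.27 (edgeR adjusted p = 0.000338), and the latter was lost in DESeq2 (-0.15, adjusted p = 0.0714). Between BxPC3 and Panc327 PPP1CC differed by 0.04, with a 95% interval of -0.10 to 0.19 (edgeR adjusted p = 0.693).

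XRN2 rose more than in SUIT2 by 0.30 in BxPC3 (edgeR adjusted p = 9.76e-05) and by 0.20 in Panc327 (edgeR adjusted p = 0.0117). Both turned with library size only, to -0.08 and -0.11, and neither reversed value was called. The Panc327 difference was also lost without SUIT2 DMSO replicate 3 or THZ1 replicate 1, at 0.16 in each case. Between BxPC3 and Panc327 the XRN2 responses differed by 0.10, with an interval of -0.02 to 0.22 (edgeR adjusted p = 0.205).

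Levels with DMSO were compared between lines by test for the 7 genes chosen by complex. For ZC3H4 and PPP1R10 the DMSO libraries are part of the contrast they were chosen by, so their DMSO levels are a description. Per kilobase of exon, PPP1CA was the highest of the 9 in each line, at 154 ± 5.19 CPM per kilobase in BxPC3, 119 ± 3.53 in Panc327 and 197 ± 6.63 in SUIT2 (SD, n = 3). The lowest were PCF11, from 7.86 to 9.70 CPM per kilobase across lines, and ZC3H4, from 8.30 in SUIT2 to 15.7 in Panc327. In SUIT2 ZC3H4 (8.30 ± 0.390) and PCF11 (9.69 ± 0.632) were the lowest and were close. In BxPC3 TOX4 (22.6 ± 1.21) and PPP1CB (24.1 ± 1.25) were neighbours within their spread. WDR82, from 30.4 to 48.8 CPM per kilobase, exceeded both of its partners ZC3H4 and PPP1R10 in every line.

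XRN2 varied most between lines: its DMSO level in BxPC3 was 3.19-fold that in SUIT2, a log2 difference of 1.67 (edgeR adjusted p = 2.58e-52), and in Panc327 2.29-fold (1.20, edgeR adjusted p = 1.94e-40). TOX4 in BxPC3 and Panc327 was 0.99 and 1.04 above SUIT2 (edgeR adjusted p = 2.03e-27 and 3.3e-29), and these lines differed by only -0.05, with an interval of -0.16 to 0.06 (edgeR adjusted p = 0.403). ZC3H4 was highest in Panc327 and lowest in SUIT2: BxPC3 stood 0.56 and Panc327 0.92 above SUIT2 on the log2 scale, and the libraries of the 3 lines did not overlap.

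WDR82, PPP1CA and PPP1R10 had the opposite order, with SUIT2 highest and Panc327 lowest. Panc327 was below SUIT2 by a log2 difference of -0.68 for WDR82 (edgeR adjusted p = 2.66e-24), -0.73 for PPP1CA (edgeR adjusted p = 8.62e-28) and, with no test, -0.52 for PPP1R10. BxPC3 lay between. For PPP1R10 BxPC3 stood 0.15 above Panc327. PPP1CB was highest in Panc327 and lowest in SUIT2, 0.63 apart (edgeR adjusted p = 3.97e-19). PPP1CC levels had the order BxPC3, Panc327, SUIT2 from lowest to highest, with BxPC3 and SUIT2 differing by -0.50 (edgeR adjusted p = 6.75e-17). PCF11 was lower in BxPC3 than in either other line by -0.30, while Panc327 and SUIT2 differed by 0.00, with an interval of -0.13 to 0.13 (edgeR adjusted p = 0.982).

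In DMSO, BxPC3 against Panc327, 3 of the 7 were called higher and 3 lower, where 38.6% and 40.7% of all genes were. BxPC3 against SUIT2, 3 were higher and 4 lower, against 38.9% and 39.7%. Panc327 against SUIT2, 3 were higher and 3 lower, against 42.9% and 39.6%. With a background this high, nothing is read from these counts.

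**Figure D5:**
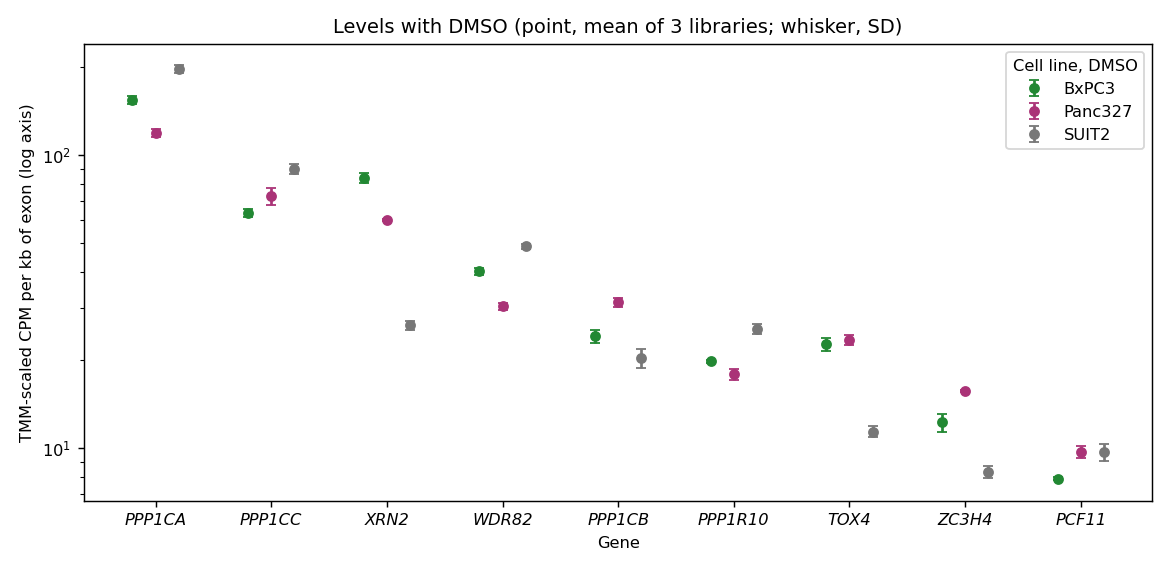
Level of the 9 genes per kilobase of exon in the 3 lines with DMSO (TMM-scaled CPM per kilobase, log axis), with points at the mean of 3 libraries and whiskers for the SD. PPP1CA is highest in each line, and XRN2 differs most between lines.

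The pattern of ZC3H4 over the 18 libraries was compared with 9597 genes of at least 10 CPM by Pearson correlation of log2 CPM after the mean of each line was removed, a description in which the points share the treatment. The genes nearest to it were ERCC4 (r = 0.996), ESPL1 (0.995), CHMP7 (0.994), TFAP4 (0.994) and AMIGO2 (0.994). ERCC4, a nuclease subunit of nucleotide excision repair, had log2 fold changes of -2.75, -3.34 and -0.39 in BxPC3, Panc327 and SUIT2. WDR82 was at place 29 (r = 0.990), PPP1R10 at 301 and TOX4 at 313 (each r = 0.978), and PPP1CC at 1041 (r = 0.950). PCF11 had r = 0.292, and XRN2, PPP1CB and PPP1CA had -0.897, -0.929 and -0.972. The nearest to PPP1R10 were DENND4B (0.995), RBM23 (0.995), MORC2 (0.994), CDKN2AIP (0.992) and PHF23 (0.991), and CDKN2AIP is a known partner of XRN2.

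Neighbouring genes were read for comparison. SAE1, a subunit of the SUMO activating enzyme whose gene overlaps the ZC3H4 locus on the other strand without a shared exon, rose by 0.57 in BxPC3 and by 0.74 in Panc327 and was at 0.12 in SUIT2, not called. MRPS18B, which overlaps PPP1R10, fell by 0.53 in BxPC3, 0.37 in Panc327 and 0.18 in SUIT2, the last not called in DESeq2 (adjusted p = 0.0701). ABCF1, next to PPP1R10, fell by 0.47 and 0.50 in BxPC3 and Panc327, far less than PPP1R10. TMEM160, next to ZC3H4, rose by 1.09, 0.90 and 0.50 in the 3 lines, the last not called in DESeq2 (adjusted p = 0.0828). Near PPP1CA, CLCF1 fell by 1.55 in BxPC3 and by 2.27 in Panc327, and RPS6KB2 rose by 0.82 and 0.86. TRMT61B, next to PPP1CB, fell by 1.98 and 1.31 while PPP1CB rose.

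Other genes of early termination were described by their counts and medians, read beside the background above. Of 20 exosome and cap-binding cofactors, which degrade the RNA that the restrictor releases, 5 were called higher and 13 lower in BxPC3 (median -0.36), 6 and 14 in Panc327 (median -0.77), and 2 and 2 in SUIT2 (median -0.03). DESeq2 called 5 higher and 11 lower in BxPC3, and 0 and 2 in SUIT2. EXOSC3, an exosome core subunit, fell, with log2 fold changes of -1.87 in BxPC3 and -1.96 in Panc327, and was at -0.07 in SUIT2. EXOSC4, another core subunit, fell by 1.43, 1.81 and 0.34. SRRT, the ARS2 protein that links the cap to decay, rose by 1.54 and 0.91 in BxPC3 and Panc327 and was at -0.06 in SUIT2, not called.

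Integrator, a complex that cleaves short and paused transcripts, had 14 tested subunits, of which 2 were called higher and 10 lower in BxPC3 (median -0.79), 2 and 10 in Panc327 (median -0.72), and 0 and 4 in SUIT2 (median -0.16), where edgeR put 1 higher at an unadjusted p under 0.05 and DESeq2 called 0 higher. In Panc327 DESeq2 called 9 lower. INTS5 fell by 1.65, 3.26 and 0.28 in the 3 lines. INTS6, which recruits a protein phosphatase to Integrator, was at -2.14 in BxPC3 and -1.53 in Panc327, both called. INTS11, the endonuclease listed as CPSF3L, rose by 0.34 and 0.47, and INTS1 rose by 0.43 and 0.57.

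Of 19 cleavage and polyadenylation factors, the partners of PCF11, 7 were called higher and 11 lower in BxPC3 (median -0.36), 4 and 13 in Panc327 (median -0.56), and 2 and 8 in SUIT2 (median -0.15). CSTF3, a subunit of the cleavage stimulation factor, fell by 2.09, 2.74 and 0.75. CPSF6, of cleavage factor I, rose by 1.34, 0.88 and 0.27. Its partner NUDT21 rose by 1.01 and 0.95 in BxPC3 and Panc327, and was at 0.02 in SUIT2, not called.

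Of 18 other termination factors, 7 were called higher and 7 lower in BxPC3 (median 0.11), 6 and 9 in Panc327 (median -0.14), and 3 and 2 in SUIT2 (median 0.06). DESeq2 called 8 higher and 7 lower in BxPC3, and 7 and 6 in Panc327. SUPT5H, which encodes the PNUTS substrate SPT5, rose by 0.75 and 0.62 in BxPC3 and Panc327 and was at 0.10 in SUIT2, not called. SCAF4, an anti-terminator, rose by 1.1 in BxPC3 and was at -0.16 in Panc327 (edgeR adjusted p = 0.0317), a call lost in DESeq2 (-0.04, adjusted p = 0.64).

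WDR82 also belongs to the SET1 histone methyltransferase complexes. Of their 10 other subunits, 2 were called higher and 5 lower in BxPC3 (median -0.10), 3 and 5 in Panc327 (median -0.13), and 1 and 0 in SUIT2 (median 0.07). In SUIT2 0 were lower in edgeR also at an unadjusted p under 0.05. DESeq2 called 3 and 3 in BxPC3, 3 and 4 in Panc327, and 0 and 0 in SUIT2. The scaffold RBBP5 fell by 0.42 and 1.77 and the methyltransferase SETD1B by 1.01 and 1.12 in BxPC3 and Panc327. CXXC1, which binds unmethylated CpG, rose by 0.72 and 0.49, and DPY30 rose by 0.37 and 0.36. In SUIT2 these 4 were between 0.05 and 0.18, and none was called.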

How the data were processed

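Poly(A) RNA was sequenced in 18 libraries. The deposited values are raw counts per gene symbol. The submitters' processing notes name bcl2fastq 1.8.4, TopHat2 2.1.0, HTSeq 0.6.1 and the build hg38; for annotation, strand and counting mode, the sources used here give nothing. The 5 summary entries per file were left out. In R 4.3.3 with edgeR 4.0.16, genes passing filterByExpr (minimum count 10, total 15) were scaled by TMM and fitted with 6 group means (robust quasi-likelihood, 12 residual degrees of freedom). Adjusted p under 0.05 over 14011 genes made a call. The SE is the absolute log2 fold change over the square root of F, which can be too small for large falls to few counts. Alternatives were DESeq2 1.42.0, RLE size factors, scaling by library size only, no filter, fits of only the lines compared, a replicate block and leaving out each library. Scripts were tested on simulated data. Exon lengths and positions come from GENCODE 29. Gene positions cover all transcripts of a gene, and exon numbers are the most in a RefSeq transcript. Named genes are the 9, their overlapping or nearest neighbours, 2 highest and 2 lowest by mean fold change per list, and 5 nearest by correlation, not all of which are printed, and 1 gene that meets this rule is not reported here. The genes and lists were chosen with earlier results of these data known. Figures were made with matplotlib 3.10.9 in Python 3.11.15. Replicates of a group differed beyond counting noise.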

Additional observations from a re-analysis of the deposited data

Results flagged for a closer look

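The THZ1 responses of 7 genes differed between lines by a test of the difference itself (edgeR, adjusted p given in the results). In BxPC3 minus Panc327 the log2 differences were 0.69 for WDR82, 0.23 for PPP1CB and 1.37 for PCF11. In BxPC3 minus SUIT2 they were -0.97 for WDR82, -0.44 for TOX4, 0.69 for PPP1CA, 0.65 for PPP1CB, -0.23 for PPP1CC, 0.73 for PCF11 and 0.30 for XRN2. In Panc327 minus SUIT2 they were -1.66 for WDR82, -0.64 for TOX4, 0.68 for PPP1CA, 0.42 for PPP1CB, -0.27 for PPP1CC, -0.64 for PCF11 and 0.20 for XRN2. ZC3H4 and PPP1R10, chosen on their falls, were left out of this comparison. Some of the calls listed were lost under an alternative. Among them were PPP1CB in BxPC3 minus Panc327, and PPP1CB and PPP1CC in Panc327 minus SUIT2. Both XRN2 differences turned with library size only.

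Outside the gene counts, records aligned to several places made up 22.8% in BxPC3 with THZ1 and 52.8% in Panc327 with THZ1, above the DMSO libraries of those lines. What these records are was not tested. Groups of 3 libraries are too small for a check of single outlying libraries.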

How the results depend on the processing

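Of 1134 values of the 9 genes under the alternatives, 11 passed the threshold newly, 13 kept their sign but no longer passed it, and 33 changed sign. Of the 33, 29 were not called before or after and had reported values of at most 0.11 in size, among them XRN2 in SUIT2 and, for BxPC3 minus Panc327, PPP1CA, PPP1CC, PPP1R10 and XRN2. The other 4, which had been called, are XRN2 with library size only. For THZ1 they were -0.091 in BxPC3 and -0.12 in Panc327, both called in the new direction. The values of -0.081 for BxPC3 minus SUIT2 and -0.11 for Panc327 minus SUIT2 were no longer called (edgeR adjusted p = 0.317 and 0.155). That scaling also moved the median of all genes down in BxPC3 and Panc327. It also took the share of THZ1 calls that were higher from 50.8% to 26.8% in BxPC3 and from 48.5% to 31.0% in Panc327. Genes called in SUIT2 went from 2044 to 1348 in DESeq2 (the cause was not tested) and to between 1353 and 1625 when 1 of its libraries was left out, lowest without DMSO replicate 3, with fewer samples. The rise of the PPP1CA share in Panc327 was 14.1 percentage points and 11.8 without length scaling.

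Libraries with the same replicate number did not deviate together (correlation -0.0931 to 0.0257). No pairing by number was thus seen, but counting noise in these deviations could hide a weak one. With a replicate block 9636 genes were called in BxPC3, 10221 in Panc327 and 1920 in SUIT2 with THZ1, and the block changed no call of the 9 genes. ZC3H4 with THZ1 rested on as few as 17 counts in a Panc327 library, which limits the precision of its level there.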

Other observations

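The counts below stand beside 35.2% of all tested genes called higher and 34.1% lower in BxPC3, 35.6% and 37.8% in Panc327, and 6.95% and 7.64% in SUIT2, and nothing is read from counts near these shares. PNUTS is a regulatory subunit of PP1, and 28 other regulatory subunits were tested. With THZ1 10 were called higher and 11 lower in BxPC3 (median -0.09), 6 and 14 in Panc327 (median -0.31), and 2 and 2 in SUIT2 (median -0.01). In DESeq2 these counts were 10 and 9, 8 and 12, and 0 and 1. PPP1R3D, which targets PP1 to glycogen, fell, with log2 fold changes of -2.06 in BxPC3 and -2.0 in Panc327. PPP1R9B, the scaffold spinophilin, fell too, at -1.17 and -1.96. PPP1R14B, a PP1 inhibitor, rose by 1.03 and 1.04, and PPP1R12B, a myosin phosphatase subunit, rose by 0.58 and 1.94. None of these 4 was called in SUIT2, where they lay between -0.27 and 0.05.

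Of 17 other genes named ZC3H for their CCCH zinc fingers, 5 were called higher and 8 lower in BxPC3 (median -0.44), 2 and 9 in Panc327 (median -0.22), and 2 and 1 in SUIT2 (median -0.02). DESeq2 called 2 higher and 6 lower in Panc327, and 1 and 0 in SUIT2. ZC3H6, a paralog of ZC3H4, fell, with log2 fold changes of -1.67 in BxPC3 and -1.86 in Panc327, and was at -0.10 in SUIT2, not called. Its level was low in every group, so these sizes are imprecise. In BxPC3 it was 1.52 ± 0.268 CPM with DMSO and 0.461 ± 0.443 CPM with THZ1 (SD, n = 3). For Panc327 the means were 2.83 ± 0.202 and 0.789 ± 0.384 CPM. ZC3H10 fell by 2.27, 0.66 and 0.50 in the 3 lines, of which the Panc327 and SUIT2 calls were lost in DESeq2 (adjusted p = 0.0587 and 0.0536). In BxPC3 the ZC3H10 mean went from 4.24 to only 0.871 CPM, so the size of that fall is imprecise too. ZC3H12A, an endonuclease that degrades inflammatory mRNAs, rose by 1.47 and 0.92 in BxPC3 and Panc327.

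Of 10 other phosphatases of the RNA polymerase II tail, 5 were called higher and 5 lower in BxPC3 (median 0.05), 4 and 5 in Panc327 (median -0.18), and 1 and 0 in SUIT2 (median 0.02), where edgeR put 1 lower at an unadjusted p under 0.05. DESeq2 called 0 higher and 0 lower in SUIT2. CTDP1 fell by 0.50 in BxPC3 and by 1.70 in Panc327, and RPAP2 by 0.40 and 1.59. CTDSPL rose by 0.51 and 0.82, and CTDSPL2 rose by 0.32, 0.60 and 0.23 in the 3 lines, the last not called in DESeq2 (adjusted p = 0.0577).

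The balance between the restrictor subunit ZC3H4 and the scaffold PPP1R10, per kilobase of exon, was 0.878 ± 0.0290 with DMSO and 0.362 ± 0.0776 with THZ1 in Panc327 (SD, n = 3). In BxPC3 it was 0.618 ± 0.0423 and 0.531 ± 0.200, within the spread, and in SUIT2 it was higher with THZ1, at 0.326 ± 0.0246 and then 0.438 ± 0.0342. PCF11 per XRN2 was 0.161 ± 0.00686 and then 0.0803 ± 0.0190 in Panc327, and 0.0941 ± 0.00457 and then 0.112 ± 0.00688 in BxPC3. These ratios were not tested.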
